A study of Mus musculus with 4 samples.

Results

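The tumour necrosis factor (TNF) ligands and TNF receptors were followed in the stromal vascular fraction of mouse inguinal white adipose tissue (iWAT SVF), the cells left when the fat of digested tissue is floated away. Members were taken by gene symbol, as all symbols of the Tnfsf and Tnfrsf series together with Tnf, Lta, Ltb, Ltbr, Cd27, Cd40, Cd40lg, Cd70, Fas and Fasl. This gave 41 genes, 17 ligands and 24 receptors, of 26214 symbols in the files. The rule uses symbols alone, and it was set with earlier results of these data known. The treated group (2 libraries) came from mice given a medicinal herb extract (MHE), and the control group (2 libraries) from mice given phosphate-buffered saline (PBS). The labels name no strain, age, genotype, diet, dose or duration for either group, and no composition for the extract. The libraries are labelled as biological replicates, and the protocol speaks of triplicates, of which 2 per group were analysed here.

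TNF superfamily ligands are mostly membrane-bound trimers, some of which are shed, and each binds 1 or a few receptors of the TNF receptor superfamily. Receptors with a cytoplasmic death domain, such as TNFR1 and Fas, can start caspase activation, while many of the others recruit TRAF adaptors and activate NF-kappaB. Many of the ligands and costimulatory receptors are made by lymphocytes and dendritic cells, whereas TNFR1, the lymphotoxin beta receptor, Fas and the TWEAK receptor are also made by stromal cells. Lymphotoxin signalling to stromal cells is known for building lymph nodes, and TNF for its action on fat cells and inflamed adipose tissue.

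The ligand genes Ltb, Tnf and Lta, lie side by side on chromosome 17 within 10.9 kb, and their promoters are shown because all had higher values in both MHE libraries. The promoter of Tnfsf11, which encodes RANKL, is shown beside them as a ligand gene of another chromosome with that pattern. The sequences are the 250 bases before the RefSeq start on GRCm38.p6 (mm10), written on the strand of the gene, without bases that GENCODE M21 annotates as exon. Capitals mark matches to a TATA box (TATAAA on either strand) or to the NF-kappaB consensus. A match is a description of the letters and not a measured binding site.
Ltb, chr17:35194257-35194438, plus strand: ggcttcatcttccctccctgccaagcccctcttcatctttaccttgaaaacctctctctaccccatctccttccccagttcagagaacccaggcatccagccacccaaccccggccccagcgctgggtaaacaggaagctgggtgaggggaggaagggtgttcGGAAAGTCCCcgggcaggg
Tnf, chr17:35202008-35202257, minus strand: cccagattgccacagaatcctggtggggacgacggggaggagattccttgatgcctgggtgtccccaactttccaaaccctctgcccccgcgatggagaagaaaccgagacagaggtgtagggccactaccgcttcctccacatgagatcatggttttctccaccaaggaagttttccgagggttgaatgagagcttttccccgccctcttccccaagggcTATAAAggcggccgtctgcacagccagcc
Lta, chr17:35205352-35205601, minus strand: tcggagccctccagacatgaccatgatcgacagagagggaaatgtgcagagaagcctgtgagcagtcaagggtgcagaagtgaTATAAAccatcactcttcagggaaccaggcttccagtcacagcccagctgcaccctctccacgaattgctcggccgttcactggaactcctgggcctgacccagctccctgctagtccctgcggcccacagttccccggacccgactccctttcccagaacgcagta
Tnfsf11, chr14:78308044-78308293, minus strand: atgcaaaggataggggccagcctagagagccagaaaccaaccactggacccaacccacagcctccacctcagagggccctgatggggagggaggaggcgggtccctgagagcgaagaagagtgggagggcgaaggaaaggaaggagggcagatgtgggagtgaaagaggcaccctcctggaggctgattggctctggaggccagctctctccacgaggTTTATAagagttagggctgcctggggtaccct
The Ltb promoter held an NF-kappaB match from 87 to 78 bases before the start, and those of Tnf and Tnfsf11 a TATA match beginning 29 and 32 bases before it. The TATA match of Lta began 167 bases before its start. RefSeq promoters were matched for 31 of the 41 members. An NF-kappaB match lay in 4 of them (12.9%; Ltb, Tnfrsf8, Tnfrsf9 and Tnfrsf25), against 8.23% of 27025 genes, and a TATA match in 6 (19.4%), against 14.3% of genes.

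Libraries held 27161882 to 33391075 counts, and 16196 genes had enough counts to be tested. Values are depth-scaled counts (CPM, computed with TMM library factors), listed in the order MHE replicate 1, MHE replicate 2, PBS replicate 1, PBS replicate 2, and log2 fold changes are MHE minus PBS with a standard error (SE). A gene is said to have risen or fallen where its adjusted p (edgeR quasi-likelihood test, Benjamini-Hochberg over all tested genes) was under 0.05. With MHE, 643 genes rose (3.97% of those tested) and 156 fell (0.963%). T cell marker genes took 0.108% and 0.0796% of counts in the MHE libraries and 0.00470% and 0.00241% in the PBS libraries, and all 11 tested rose. B cell markers took 0.234% and 0.182% with MHE, 0.0116% in PBS replicate 1 and 0.000892% in PBS replicate 2, and 5 of 11 rose. None of these T and B cell markers was at 0 in any library. In bulk RNA, more cells of a type and more RNA per cell cannot be told apart.

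The members that passed the threshold in edgeR were all higher with MHE. Of the 38 members tested (14 ligands and all 24 receptors), 9 rose, which is 23.7% beside the 3.97% of all genes. The 4 ligands that rose were Tnfsf8, Lta, Cd40lg and Tnfsf11, and the 5 receptors were Cd27, Tnfrsf9, Tnfrsf18, Cd40 and Tnfrsf13b. Their log2 fold changes ran from 3.16 to 5.39 (9.0-fold to 42.1-fold), with adjusted p from 0.0218 to 0.0485. The count of 0 that fell is near the share of all genes that fell (0.963%). It is from edgeR, where 3 members were lower at an unadjusted p under 0.05. DESeq2 called 2 lower (Ltbr and Tnfrsf12a), beside 7.64% of all genes, and limma-voom 0, beside 1.5%. At that unadjusted threshold 21 members were higher, beside 16.7% of all genes higher and 11.8% lower. The median log2 fold change was 1.95 over the 38 members, 2.79 over the ligands and 1.11 over the receptors, against -0.02 over all tested genes. Both MHE libraries stood above both PBS libraries for 25 members (12 ligands and 13 receptors; 33.1% of all genes), and both stood below for 7 (1 ligand and 6 receptors; 28.9% of all genes). The groups overlapped for the other 6.

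**Figure D1:**
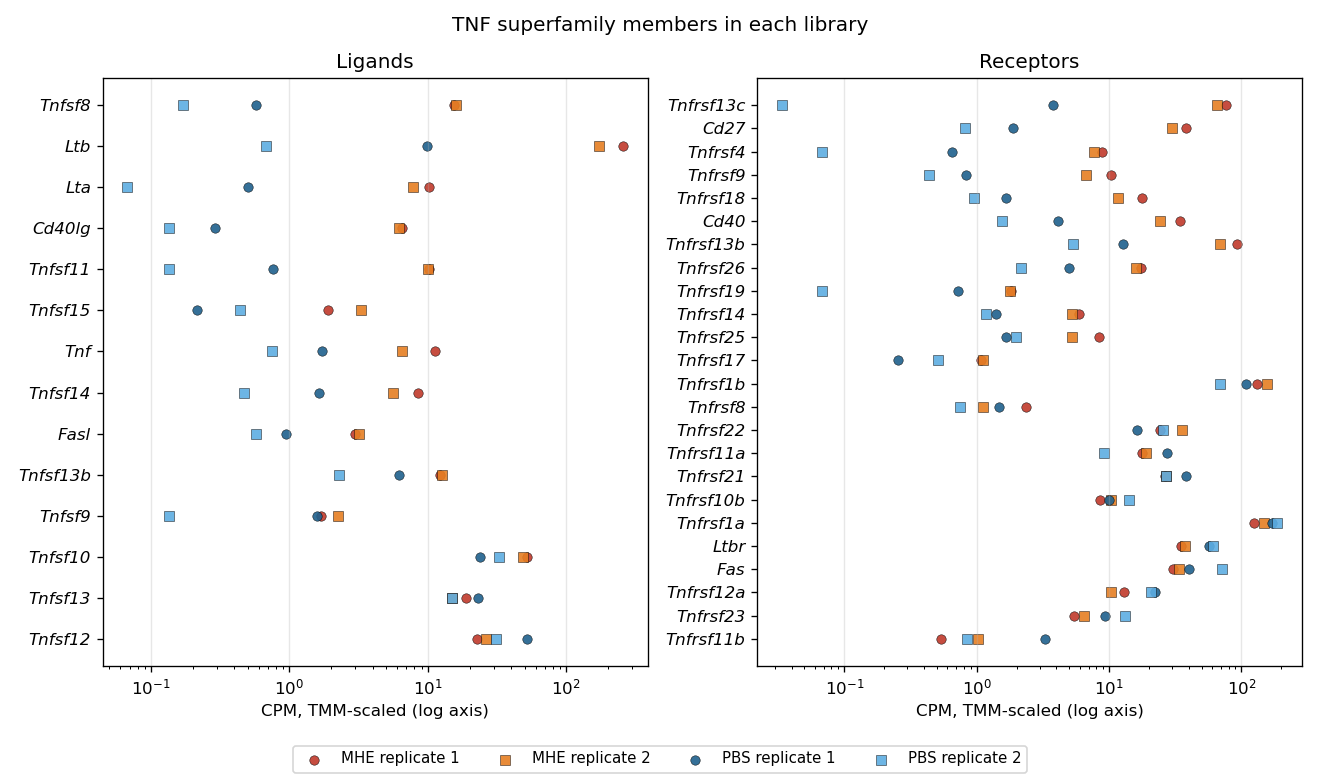
CPM (log axis) of each tested ligand (left) and receptor (right) in each of the 4 libraries, 1 point per library, ordered by log2 fold change. For the genes at the top the 2 MHE points lie close together far to the right of the PBS points, and PBS replicate 2 is often the lowest, as for Ltb at 0.676 CPM against 9.93 in PBS replicate 1.

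**Figure D2:**
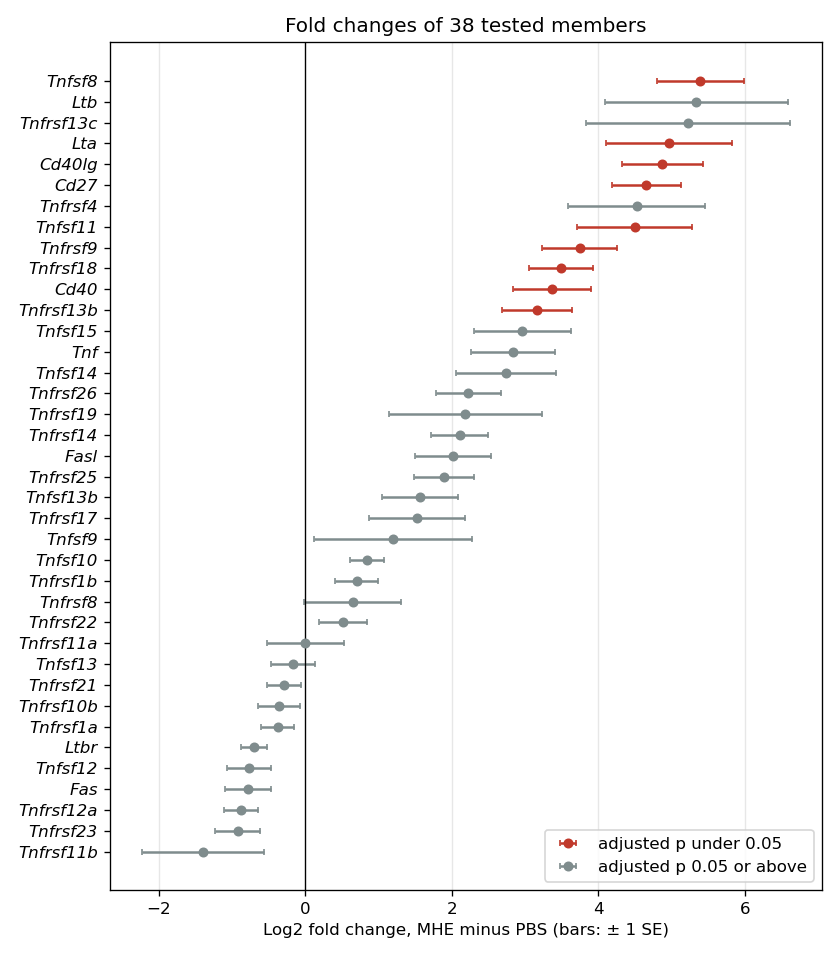
Log2 fold change (MHE minus PBS, bars ± 1 SE, 2 libraries per group) of the 38 tested members, in red where the adjusted p was under 0.05. The 9 red genes lie between 3.16 and 5.39, while Ltb and Tnfrsf13c are as far to the right with wide bars and remain grey.

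Of the 3 neighbouring ligand genes on chromosome 17, Lta rose. It encodes lymphotoxin alpha, which binds both TNF receptors as a secreted trimer and joins lymphotoxin beta at the cell surface. Lta (chr17:35203165-35205351) stood at 10.2, 7.83, 0.505 and 0.0676 CPM, with a log2 fold change of 4.97 ± 0.86 and an adjusted p of 0.0474. Ltb (chr17:35194439-35196320), the membrane anchor of the lymphotoxin heterotrimer, stood at 256, 173, 9.93 and 0.676 CPM. Its log2 fold change was 5.34 ± 1.25, larger than that of Lta, and its adjusted p 0.0767. Tnf (chr17:35199381-35202007), the founding cytokine of the family, stood at 11.2, 6.49, 1.73 and 0.744 CPM, with a log2 fold change of 2.83 ± 0.57 and an adjusted p of 0.0584. For all 3 genes both MHE libraries lay above both PBS libraries. PBS replicate 1 held 7.48 times the Lta, 14.7 times the Ltb and 2.33 times the Tnf of PBS replicate 2. Without PBS replicate 1 the log2 fold change of Ltb was 8.28, and without PBS replicate 2 it was 4.44. Over all settings run, the log2 fold change of Tnf ran from 2.36 to 3.55.

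The receptors of these ligands did not share that size of difference, and none rose or fell. Tnfrsf1a, which encodes the death domain receptor TNFR1, stood at 125, 148, 169 and 186 CPM (log2 fold change -0.38 ± 0.23, adjusted p 0.327). Tnfrsf1b, which encodes TNFR2, a receptor without a death domain, stood at 130, 157, 108 and 68.9 CPM (0.70 ± 0.30, adjusted p 0.196). Ltbr, the receptor of the lymphotoxin heterotrimer, stood at 35.0, 37.7, 57.1 and 61.3 CPM (-0.70 ± 0.18, adjusted p 0.0912). The MHE libraries were the 2 lowest for Tnfrsf1a and Ltbr and the 2 highest for Tnfrsf1b. The widest ratio between their replicates was 1.57, at Tnfrsf1b in the PBS libraries.

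Cd40lg and Cd40 were the single ligand and receptor pair of which both genes rose. CD40 ligand is displayed by activated helper T cells and engages CD40 on B cells, dendritic cells and macrophages. Cd40lg (chrX:57212143-57224042) stood at 6.47, 6.14, 0.289 and 0.135 CPM (log2 fold change 4.88 ± 0.55, adjusted p 0.0248). Cd40 (chr2:165055627-165072948) stood at 34.0, 24.1, 4.08 and 1.55 CPM (3.37 ± 0.53, adjusted p 0.0424). The groups did not overlap for either gene. Dendritic cell markers took 0.0360% and 0.0282% of counts with MHE and 0.0142% and 0.00446% with PBS, and 5 of 10 rose. Macrophage markers took 0.261% and 0.315% with MHE and 0.413% and 0.165% with PBS, and 0 of 12 rose or fell. The part of cell numbers in the difference of any member was not tested.

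Cd27, Tnfrsf9 and Tnfrsf18, which encode costimulatory receptors of T cells, rose, and of their ligands Tnfsf9 alone had enough counts to be tested. Cd27 (chr6:125232622-125237010), a receptor of naive and memory lymphocytes, stood at 37.9, 29.9, 1.88 and 0.811 CPM. Its log2 fold change of 4.66 ± 0.47 had the smallest adjusted p of all members (0.0218). Cd70, its only known ligand, had 0 counts in all 4 libraries, which allows up to 3 counts in each and was not testable. Tnfrsf9 (chr4:150914562-150946102), induced on activated T cells, stood at 10.4, 6.67, 0.830 and 0.439 CPM (3.75 ± 0.52, adjusted p 0.0332). Its ligand Tnfsf9 stood at 1.69, 2.25, 1.59 and 0.135 CPM (1.19 ± 1.08, adjusted p 0.502), so that PBS replicate 1 was near the MHE libraries and PBS replicate 2 far below them. The log2 fold change of Tnfsf9 was 3.80 when PBS replicate 1 was left out and 0.31 when PBS replicate 2 was. Tnfrsf18 (chr4:156026164-156028895), known as GITR and abundant on regulatory T cells, stood at 17.8, 11.6, 1.66 and 0.946 CPM (3.49 ± 0.44, adjusted p 0.0276). Its ligand Tnfsf18 had 2, 12, 8 and 0 counts and was not tested, and the ratio of MHE to PBS was 1.63 (95% counting interval 0.637 to 4.48).

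Tnfrsf4, next to Tnfrsf18 in the genome and known as OX40, stood at 8.88, 7.69, 0.650 and 0.0676 CPM. Its log2 fold change was 4.53 ± 0.94 with an adjusted p of 0.0625. The value was 6.84 when PBS replicate 1 and 3.67 when PBS replicate 2 was left out. Tnfsf4, its ligand, had 9, 16, 2 and 0 counts and was not tested. The Tnfsf4 ratio of 11.6 has a counting interval of 2.90 to 101, which covers counting error only. Tnfsf8 (chr4:63831308-63861347), the CD30 ligand, had the largest log2 fold change of the tested members and nearly equal MHE libraries, at 15.5, 16.0, 0.578 and 0.169 CPM (5.39 ± 0.60, adjusted p 0.0242). Its receptor Tnfrsf8, known as CD30, stood at 2.35, 1.12, 1.48 and 0.744 CPM (0.64 ± 0.66, adjusted p 0.552), and its groups overlapped.

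Among the genes of the BAFF and APRIL system, which sustains B cells and plasma cells, the receptor Tnfrsf13b rose. Tnfrsf13b (chr11:61126755-61149372), known as TACI, stood at 93.0, 68.4, 12.7 and 5.34 CPM (3.16 ± 0.48, adjusted p 0.0395). Tnfrsf13c (chr15:82221743-82224369), the BAFF receptor of mature B cells, stood at 76.4, 65.3, 3.79 and 0.0338 CPM. The 2 PBS libraries held 105 and 1 counts of Tnfrsf13c, and its log2 fold change of 5.22 ± 1.39 had an adjusted p of 0.096. Leaving out PBS replicate 1 gave 10.85 and leaving out PBS replicate 2 gave 4.23. B cell markers also stood lowest in PBS replicate 2, as given above. Tnfrsf17, the plasma cell receptor BCMA, was scarce at 1.08, 1.12, 0.253 and 0.507 CPM (1.52 ± 0.66, adjusted p 0.204).

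Neither ligand of that system passed the threshold. Tnfsf13b, which encodes BAFF and is made by myeloid and stromal cells, stood at 12.2, 12.6, 6.14 and 2.26 CPM (1.56 ± 0.51, adjusted p 0.135). It passed the threshold without PBS replicate 1, at 2.44, and not without PBS replicate 2, at 1.03. Tnfsf13, which encodes APRIL, stood at 18.7, 14.8, 23.1 and 14.8 CPM (-0.18 ± 0.30, adjusted p 0.728). The Tnfsf13 groups overlapped, and the sign of its fold change turned when PBS replicate 1 was left out (0.16). In GENCODE M21, 60.0% of the exon bases of Tnfsf13 are shared with other genes, among them a read-through transcript with Tnfsf12, so that its counts may include reads of these.

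Tnfsf11, the ligand that drives osteoclast formation and lymph node development, rose while its receptors did not differ in the same way. Tnfsf11 (chr14:78277445-78308043) stood at 10.1, 10.04, 0.758 and 0.135 CPM (4.50 ± 0.79, adjusted p 0.0485). Tnfrsf11a, which encodes the signalling receptor RANK, stood at 17.7, 19.0, 27.6 and 9.16 CPM. Both MHE libraries of Tnfrsf11a lay between the PBS libraries, and the log2 fold change was 0.00 ± 0.53. Tnfrsf11b, the soluble decoy osteoprotegerin, stood at 0.542, 1.02, 3.28 and 0.845 CPM (-1.40 ± 0.83, adjusted p 0.32), with overlapping groups.

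Tnfsf14, Tnfrsf14, Tnfsf15 and Tnfrsf25, of the LIGHT and TL1A systems that costimulate T cells, were each higher in both MHE libraries than in either PBS library, and none passed the threshold. Ltbr, the other receptor of LIGHT, was lower in both, as given above. Tnfsf14, which encodes LIGHT and signals through Tnfrsf14 and Ltbr, stood at 8.49, 5.58, 1.62 and 0.473 CPM (2.75 ± 0.68, adjusted p 0.0841). Tnfrsf14, the herpesvirus entry mediator, stood at 5.93, 5.23, 1.41 and 1.18 CPM (2.10 ± 0.39, adjusted p 0.051). Tnfsf15, which encodes TL1A, was scarce at 1.90, 3.30, 0.217 and 0.439 CPM (2.96 ± 0.67, adjusted p 0.0707). Its death domain receptor Tnfrsf25 stood at 8.34, 5.23, 1.66 and 1.99 CPM (1.89 ± 0.41, adjusted p 0.0675). Over all settings run, the log2 fold change ran from 2.12 to 3.87 for Tnfsf14 and from 1.99 to 2.26 for Tnfrsf14. It ran from 2.53 to 3.56 for Tnfsf15 and from 1.53 to 2.20 for Tnfrsf25.

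The death ligands and their receptors pointed in different directions, and none rose or fell. Fasl, carried by cytotoxic lymphocytes, stood at 2.98, 3.16, 0.938 and 0.575 CPM (2.02 ± 0.51, adjusted p 0.0872), and passed without PBS replicate 1 (2.39) but not without PBS replicate 2 (1.71). Its receptor Fas (chr19:34290666-34327772) stood at 30.6, 33.9, 40.0 and 71.1 CPM (-0.78 ± 0.32, adjusted p 0.186), with PBS replicate 2 well above the other 3 libraries. Without PBS replicate 1, the log2 fold change of Fas was -1.16, and without PBS replicate 2 it was -0.30. Tnfsf10, which encodes TRAIL, stood at 52.0, 48.4, 23.6 and 32.5 CPM (0.84 ± 0.23, adjusted p 0.0994), and passed without PBS replicate 2 (1.10) but not without PBS replicate 1 (0.61). Tnfrsf10b, the mouse death receptor for TRAIL, stood at 8.49, 10.4, 9.96 and 14.2 CPM (-0.36 ± 0.29, adjusted p 0.453), and its groups overlapped.

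The mouse decoy receptors for TRAIL, Tnfrsf22 and Tnfrsf23, lie beside Tnfrsf26 on chromosome 7 (chr7:143607659-143685872), and the 3 neighbours had different values. Tnfrsf26 stood at 17.3, 16.0, 4.95 and 2.16 CPM (2.23 ± 0.45, adjusted p 0.0584). Its log2 fold change ran from 1.76 to 2.92 over all settings run. Tnfrsf22 stood at 24.1, 35.5, 16.3 and 25.4 CPM (0.51 ± 0.32, adjusted p 0.347), with overlapping groups. Tnfrsf23 stood at 5.42, 6.46, 9.24 and 13.3 CPM (-0.92 ± 0.31, adjusted p 0.137). Of the 50-base stretches in their exons, 27.4% of those of Tnfrsf22 and 19.3% of those of Tnfrsf23 occur in another gene, so that counts of this pair are uncertain.

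The TWEAK system, in which Tnfsf12 signals to the receptor Fn14 on stromal and injured tissue, had both genes at lower values with MHE. Tnfrsf12a, which encodes Fn14, stood at 13.0, 10.4, 22.3 and 20.9 CPM (-0.88 ± 0.23, adjusted p 0.0898). Tnfsf12 stood at 22.5, 26.4, 52.4 and 31.0 CPM (-0.77 ± 0.31, adjusted p 0.179), and 48.3% of its exon bases overlap other genes. Without PBS replicate 2, the log2 fold change of Tnfsf12 was -1.09, and without PBS replicate 1 it was -0.36. Tnfsf12 was the single tested ligand of which both MHE libraries lay below both PBS libraries.
Tnfrsf21, the death domain receptor DR6, stood at 26.2, 26.9, 37.9 and 27.1 CPM (-0.29 ± 0.24, adjusted p 0.452). Tnfrsf19, known as TROY, stood at 1.81, 1.79, 0.722 and 0.0676 CPM (2.18 ± 1.04, adjusted p 0.237) and passed without PBS replicate 1, at 4.64, but not without PBS replicate 2, at 1.32.

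Ligands and their receptors were also set side by side. Of 27 known pairs, 24 had both genes tested, and the receptor or the ligand can stand in several of them. Both genes rose in 1 pair (Cd40lg with Cd40), the ligand alone in 5, the receptor alone in 3 and neither in 15. The signs of the log2 fold changes were opposite in 12 pairs, of which 10 had the positive value at the ligand. These include Tnfsf11 with Tnfrsf11a, whose value was close to 0. Both values were positive in 11 pairs and both negative in 1, Tnfsf12 with Tnfrsf12a. The widest gaps were those of Ltb with Ltbr (5.34 against -0.70) and of Tnfsf11 with Tnfrsf11b (4.50 against -1.40). The pairs were listed from known binding, and no test was made over them. The count of 1 therefore does not show whether joint rises are rare.

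**Figure D3:**
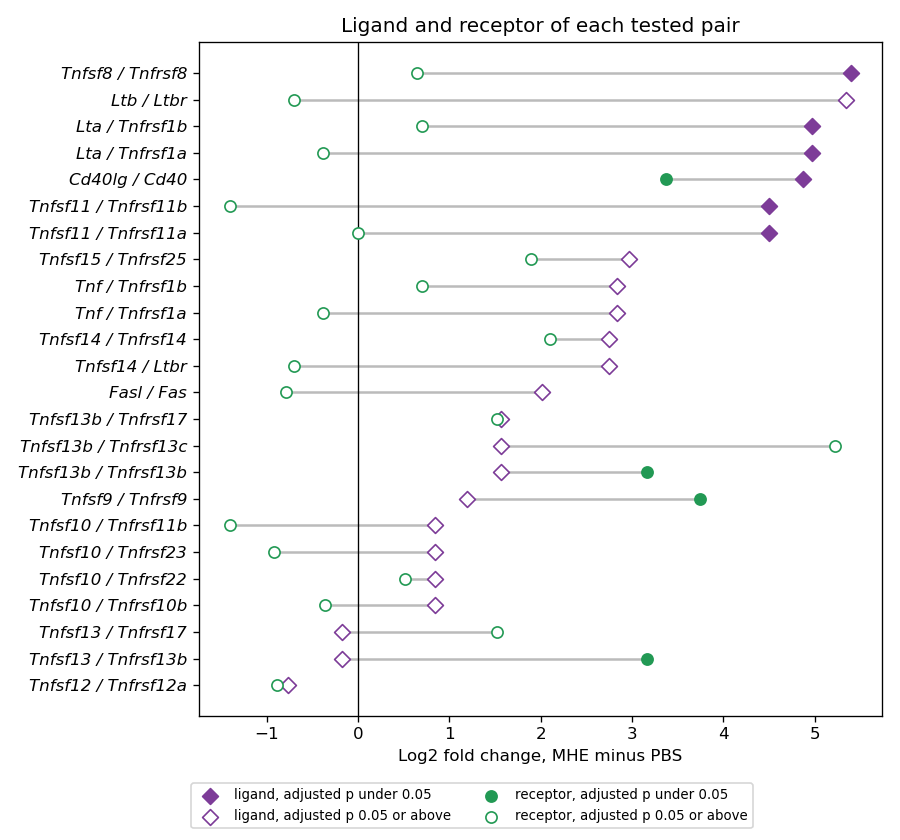
Log2 fold change (MHE minus PBS) of the ligand (purple diamond) and receptor (green circle) of each of the 24 pairs with both genes tested, filled where the adjusted p was under 0.05. Cd40lg with Cd40 is the single pair with both symbols filled. Pairs are ordered by the ligand's value, largest at the top, and this order alone favours receptors left of the ligand in the upper part.

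Neighbouring members of the superfamily did not have like values at every locus. Cd27, Ltbr and Tnfrsf1a lie within 130 kb on chromosome 6, where Cd27 rose (log2 fold change 4.66) and the other two had values of -0.70 and -0.38. Tnfrsf1b and Tnfrsf8 are neighbours on chromosome 4, at 0.70 and 0.64. Tnfrsf4 and Tnfrsf18 lie within 15.1 kb on the same chromosome, at 4.53 and 3.49, and Tnfsf15 and Tnfsf8 within 134 kb, at 2.96 and 5.39. In the annotation 27.2% of the exon bases of Tnfrsf18 overlap an antisense gene, Gm16008, and the use of strand in counting is not given in the sources used here.

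Per length, the order of the levels also differed between the groups. As mean CPM per kb of exon (GENCODE M21, since the authors' annotation is not given in the sources used here), Ltb was the highest member with MHE, at 141, followed by Tnfrsf1a at 52.7, Tnfrsf1b at 37.7, Tnfrsf13c at 34.6 and Tnfrsf13b at 28.4. In MHE replicate 1, Tnfrsf13c (37.3) was above Tnfrsf1b (34.1). With PBS, Tnfrsf1a led at 68.5, followed by Tnfsf12 at 27.5, Fas at 26.9, Ltbr at 25.2 and Tnfrsf1b at 23.2. Tnfsf12, Fas, Ltbr and Tnfrsf1b do not differ beyond the spread of the PBS libraries, since Tnfsf12 was the higher in PBS replicate 1 (34.6 CPM per kb against 19.4 for Fas and 24.3 for Ltbr) and Fas in PBS replicate 2 (34.5 against 20.5 for Tnfsf12 and 26.1 for Ltbr). Tnfrsf1b was above Fas and Ltbr in PBS replicate 1, at 28.3, and below them in PBS replicate 2, at 18.04. Ltb was at 3.50 CPM per kb with PBS, and Tnfrsf13c at 0.934.

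The 2 PBS libraries differed from each other in many members. PBS replicate 1 was over 3 times higher than PBS replicate 2 for 11 of the 38 members (28.9%), against 6.54% of 15853 genes with counts in all libraries. No member was over 3 times higher in PBS replicate 2, against 1.42% of genes. The ratio was 112 for Tnfrsf13c, 14.7 for Ltb, 11.7 for Tnfsf9, 10.7 for Tnfrsf19, 9.61 for Tnfrsf4, 7.48 for Lta and 5.61 for Tnfsf11. It was 3.89 for Tnfrsf11b and 3.01 for Tnfrsf11a, neither of which was higher with MHE, and 3.43 for Tnfsf14 and 3.42 for Tnfsf8. Between the MHE libraries no member differed over 3 times, with ratios from 0.532 to 2.09. The share of all genes was not computed there, so this is not shown to be particular to the members. The B cell marker share in PBS replicate 1 was likewise above that in PBS replicate 2, at 0.0116% and 0.000892%. A fit without 1 library assumes that the lone library varies like the other group, so its calls are not added support. Without PBS replicate 1, 22 of 39 members tested rose and 2 fell (Fas and Tnfrsf23), beside 10.5% and 5.99% of all genes. Without PBS replicate 2, 19 of 40 rose and 1 fell (Tnfsf12), beside 7.45% and 7.18% of all genes. The 9 members named above were among those that rose in both cases. Without either MHE library no member passed, as no gene of any kind did, and 16 of 40 and 17 of 38 members had an unadjusted p under 0.05, beside 13.8% and 15.1% of all genes.

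Markers of lymph node stroma were examined because lymph nodes lie in the inguinal fat. These markers took 0.125% and 0.0880% of counts with MHE and 0.121% and 0.0788% with PBS, and 2 of 6 tested rose (Glycam1 and Cxcl13). Mfge8, which many cell types express, held most of the PBS share, with 12086 and 10548 counts with MHE and 29438 and 25880 with PBS. Without Mfge8, a step chosen after its values were seen, the shares were 0.0865% and 0.0492% with MHE and 0.0145% and 0.00127% with PBS. Ccl21a, a chemokine of lymphoid stroma, stood at 630, 375, 124 and 1.22 CPM. Glycam1, a mucin of lymph node venules, had 2395 and 801 counts with MHE and 2 and 0 with PBS, Chst4 was at 0 in PBS replicate 2, Madcam1 was at 0 in PBS replicate 1 and Ccl19 was listed at 0 in every library. Mature adipocyte markers took 2.92% and 2.39% with MHE and 3.69% and 4.96% with PBS. Markers of pericytes and smooth muscle took 0.0648% and 0.0992% with MHE and 0.352% and 0.303% with PBS. The part of these in the values of the members was not tested.

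Counted against Ptprc, which encodes the leukocyte antigen CD45, some members were higher with MHE and the rest were not. Ptprc stood at 514, 526, 95.1 and 34.8 CPM (8.01-fold higher with MHE, adjusted p 0.0508). Per 1000 Ptprc counts, 10 members were higher in both MHE libraries than in both PBS libraries, beside 2.15% of all genes. These were Tnfsf8, Ltb, Lta, Cd40lg, Tnfsf11, Tnfrsf13c, Cd27, Tnfrsf4, Tnfrsf9 and Cd40. Another 21 were lower, beside 93.8% of all genes, and 7 overlapped. Tnfsf8 stood at 30.2, 30.4, 6.07 and 4.86 per 1000 Ptprc counts, a ratio of means of 5.54. Cd27 stood at 73.7, 56.8, 19.7 and 23.3 (ratio 3.03), and Cd40lg at 12.6, 11.7, 3.04 and 3.89 (ratio 3.51). For these 3 genes both PBS libraries lay close together on this scale.

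Lta (ratio 4.78) and Tnfsf11 (ratio 3.27) were also higher on this scale, whereas the other 4 members that rose in CPM had ratios nearer to 1. Cd40 stood at 66.3, 45.8, 42.9 and 44.7 per 1000 Ptprc counts (ratio 1.28), and Tnfrsf9 at 20.3, 12.7, 8.73 and 12.6 (ratio 1.54). Tnfrsf13b stood at 181, 130, 133 and 154 (ratio 1.08) and Tnfrsf18 at 34.6, 22.0, 17.5 and 27.2 (ratio 1.27), with overlapping groups. Tnf, which did not pass in CPM, stood at 21.7, 12.3, 18.2 and 21.4 (ratio 0.860). Tnfrsf1a, Ltbr and Fas, which are not restricted to leukocytes, were far lower per Ptprc count with MHE, with ratios of 0.074, 0.059 and 0.050. Some members that were higher in both MHE libraries in CPM were also lower on this scale. Examples are Fasl (ratio 0.447), Tnfrsf14 (ratio 0.440) and Tnfrsf25 (ratio 0.350). Tnfrsf11a, whose groups overlapped in CPM, had a ratio of 0.128. Tnfrsf1a stood at 243, 282, 1776 and 5356. No test was made on this scale.

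**Figure D4:**
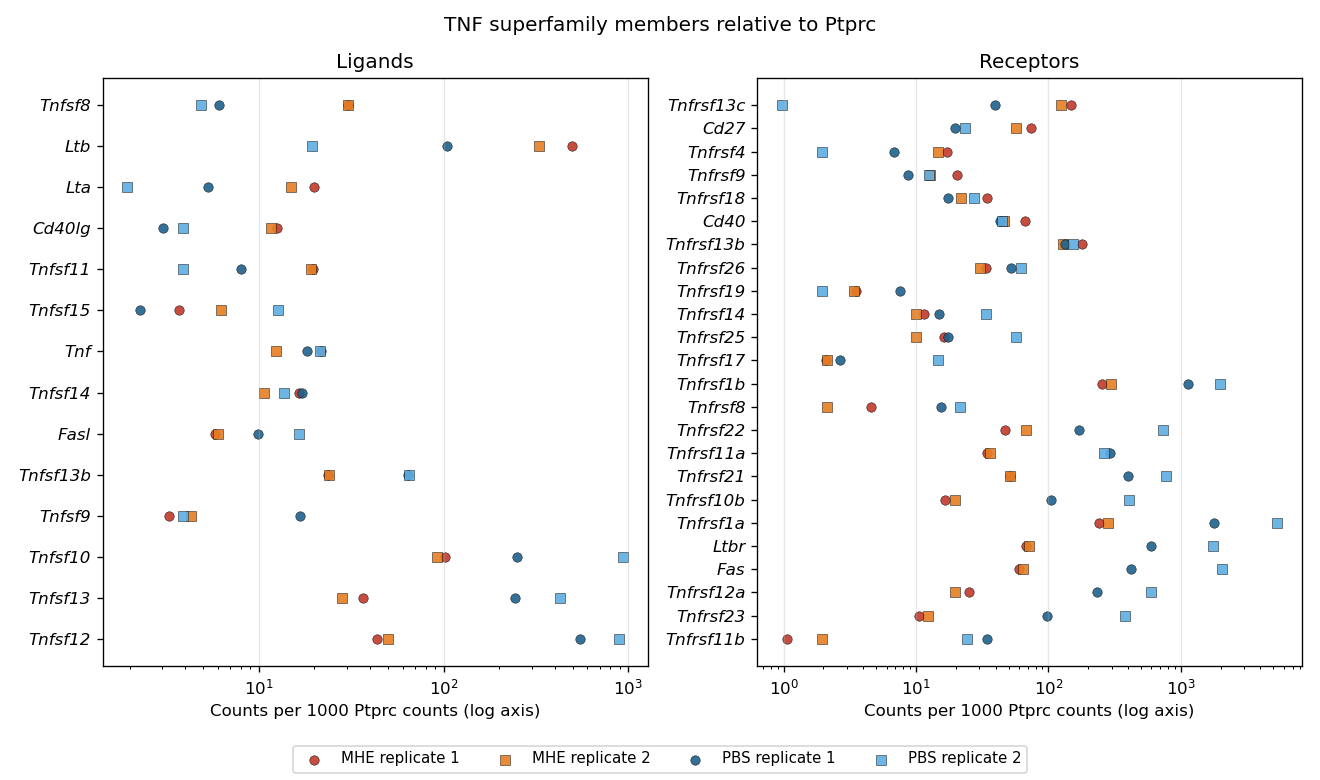
Counts per 1000 Ptprc counts (log axis) of each tested ligand (left) and receptor (right) in each of the 4 libraries. Tnfsf8, Ltb, Lta, Cd40lg and Tnfsf11 keep both MHE points to the right of both PBS points, Cd40 and Tnfrsf13b have all 4 points close together, and the receptors in the lower part have the PBS points to the right.

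Downstream of the receptors, the non-canonical NF-kappaB arm had the highest share of genes that rose among the 7 lists compared. This arm, used by the lymphotoxin beta receptor, CD40, BAFF receptor and RANK, stabilises the kinase NIK (Map3k14) and processes the Nfkb2 product for pairing with RelB. Of its 8 genes 7 rose and 0 fell, beside 3.97% and 0.963% of all genes, with a median log2 fold change of 1.60. Nfkb2 stood at 96.9, 91.3, 28.4 and 30.9 CPM (1.67 ± 0.19), and Relb at 57.5, 54.6, 17.9 and 17.8 CPM (1.65 ± 0.18). Birc3, which encodes a ubiquitin ligase that also restrains NIK, stood at 114, 114, 30.8 and 28.3 CPM (1.95 ± 0.20). Traf3, the adaptor that brings NIK to its degradation, stood at 65.8, 71.5, 20.2 and 26.8 CPM (1.55 ± 0.22). Map3k14 (52.1, 43.6, 14.7 and 7.74 CPM), Birc2 and Traf2 also rose, and Chuk had a log2 fold change of 0.27 (adjusted p 0.376). The list holds both genes that drive this arm and genes that restrain it.

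In the canonical arm 3 of 12 genes rose and 0 fell (median 0.35). They were Rel (2.74 ± 0.21, adjusted p 0.0192), a subunit abundant in lymphocytes, the inhibitor Nfkbie (2.91 ± 0.20, adjusted p 0.0192) and Nfkb1 (1.28 ± 0.20, adjusted p 0.0412). Ikbkb had a log2 fold change of 0.99 (adjusted p 0.0624). Of 12 adaptor genes 6 rose and 0 fell (median 1.02), with the largest values at Traf3ip3 (4.08 ± 0.38) and Traf1 (3.22 ± 0.47). Of 12 feedback regulators 4 rose and 0 fell (median 0.63), namely Nfkbid (3.21), Nfkbiz (2.23), Bcl3 (2.21) and Tnfaip3, which encodes the deubiquitinase A20 (1.92 ± 0.20). Of 12 death signalling genes 2 rose and 0 fell (median 0.38), Birc3 and Birc2, which both oppose cell death. Ripk3 (0.81, adjusted p 0.155) and Bid (0.59, adjusted p 0.163) came next. The lists share genes. Counted once, 23 of 66 genes rose and 0 fell, beside 3.97% and 0.963% of all genes. The same shares stand beside each list, and a count of 0 that fell is near that of all genes.

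Of 8 lymphoid chemokine and addressin genes tested, 4 rose and 0 fell (median 2.35), namely Glycam1, Icam1 (1.91), Vcam1 (2.32) and Cxcl13 (2.38). The other tested genes of this list did not pass (adjusted p 0.112 to 0.628), and Icam1 is also a listed marker of adipocyte progenitors. Lymphotoxin signalling is known to maintain such genes in lymphoid stroma, and its part here was not tested. Of 7 superfamily genes with other kinds of symbol 1 rose, Relt (2.79, adjusted p 0.0409), while Ngfr (2.32, adjusted p 0.0576), Edaradd (2.85, adjusted p 0.109) and Eda (-1.54, adjusted p 0.086) did not pass. Of the marker shares given above, those of T cells, B cells and dendritic cells were higher with MHE. Those of macrophages overlapped between the groups, and those of pericytes and smooth muscle were lower. Of NK and innate lymphoid cell markers 4 of 12 rose, and of plasma cell markers 1 of 7, beside 3.97% of all genes. The part of any cell type in the counts was not tested.

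**Figure D5:**
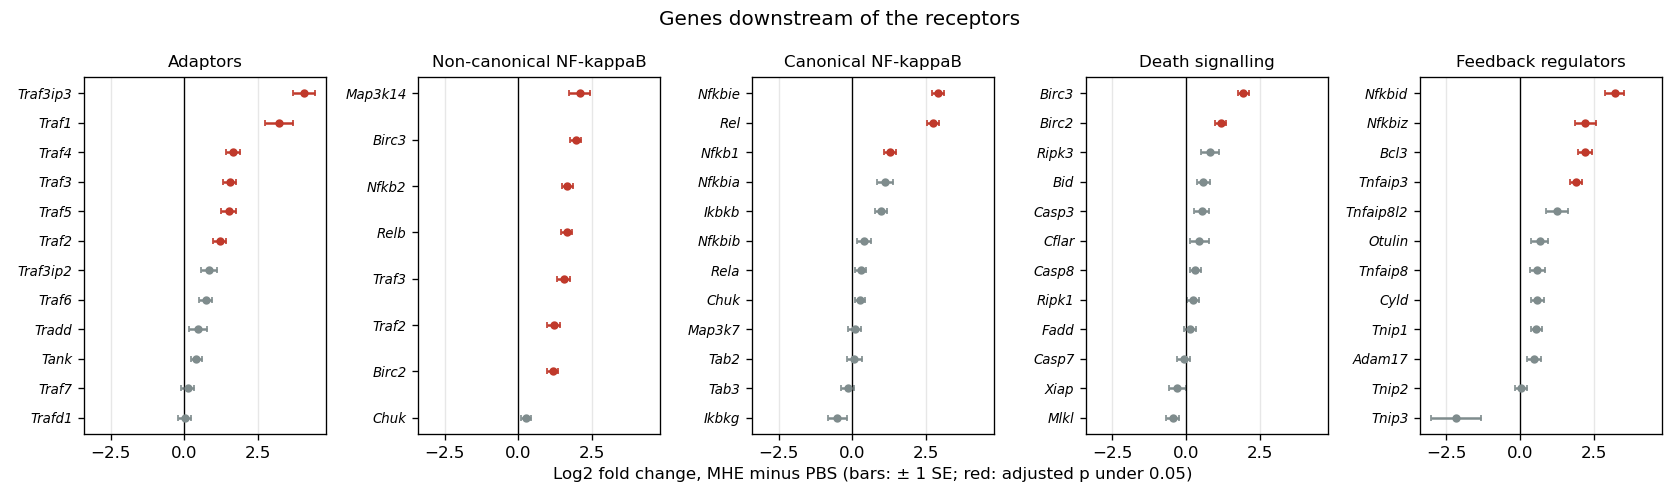
Log2 fold change (MHE minus PBS) of each tested gene in the adaptor, non-canonical and canonical NF-kappaB, death signalling and feedback regulator lists. Each list has 1 point per gene, so genes in more than 1 list are drawn in each. Genes past an adjusted p of 0.05 are marked. In the non-canonical NF-kappaB list 7 of 8 points are marked, while in the canonical and death signalling lists most points lie near 0 and are not marked.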

How the data were processed

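RNA of iWAT SVF was sequenced in 4 libraries, after Trizol isolation per the labels' protocols. For each library the authors deposited raw read counts (whole numbers) of 26214 gene symbols. Per the submitters' processing notes, TopHat2, edgeR, limma and the build mm10 were used. Not given in the sources used here are the counter, its annotation, strand setting and versions. Reads of overlapping, antisense or near-identical genes cannot be separated.

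Here edgeR 4.0.16 (R 4.3.3) was run on the counts after filterByExpr (at least 10 counts, total at least 15), with TMM factors (1.070 and 1.049 for MHE, 1.005 and 0.886 for PBS) and a robust quasi-likelihood test over 16196 genes. Each SE was obtained from a log2 fold change and its F statistic, as size over root F. The biological coefficient of variation was 33.6%. The other settings tried were library totals, median-of-ratios factors, DESeq2 1.42.0, limma-voom (limma 3.58.1), no filter, a stricter filter (1 CPM in 2 libraries and 50 counts in total), the newer quasi-likelihood setting, a replicate block and leaving out each library. Without 1 library, its group's lone library is assumed to vary like the other group. The steps were tested on simulated data, drawn with the same biological variation for every gene. That test does not cover the spread seen between the PBS libraries. The smallest two-sided p from an exact permutation of these 4 libraries is 0.333. P-values measure the spread between libraries that the labels call biological replicates. Counting intervals are exact at 95% and cover counting error only.

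Positions, exon lengths and overlaps are from GENCODE M21 and promoters from RefSeq GRCm38.p6. Members and lists were chosen with earlier results of these data known. Every member is named or counted. Values in every library were given for tested members, and from each pathway list up to 4 genes with the smallest p were named. Chuk, Map3k14 and Traf2, and the lymph node markers Mfge8, Ccl21a, Chst4, Madcam1 and Ccl19, were named after their values were seen.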

Additional observations from a re-analysis of the deposited data

How the results depend on the processing

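Across all genes 799 passed with edgeR and 2951 with DESeq2, and leaving out 1 library gave 0 to 2750. Of the members 9 rose with edgeR and 19 with DESeq2, and leaving out 1 library gave 0 to 22. The count that fell was 0 with edgeR, 2 with DESeq2 and 0 to 2 with 1 library left out. The cause was not tested, and the 0 came without either MHE library. Members that rose numbered 9 with median-of-ratios factors (3.94% of all genes), 10 with library totals (5.11%), 13 with limma-voom (5.5%), 9 without a filter (3.28%), 10 with the stricter filter (5.09%) and 11 with the newer quasi-likelihood setting (4.62%), and the same 9 were among them each time. With DESeq2 10.6% of all genes rose. Library totals shifted the median log2 fold change of all genes by 0.16.

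Tnfrsf11a, at 0.00, had a positive sign with library totals (0.12), limma-voom (0.22), no filter (0.021) and the replicate block (0.20), and ran from -0.58 to 0.99 with 1 library left out. Tnfsf13 ran from -0.45 to 0.16 when 1 library was left out. The other 36 tested members kept their sign in every setting run.

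Libraries of the 2 groups share replicate numbers, and deviations of same-numbered libraries correlated at 0.153. With 2 pairs this does not show that they are paired. With the replicate block 764 genes passed in either direction, and 8 members rose, beside 3.54% of all genes. Of these members 7 were the same, without Lta and Tnfsf11 and with Tnf. Depth limits Cd70, Tnfsf4 and Tnfsf18, and the PBS values of Tnfrsf13c, Lta and Cd40lg, among other members, rest on few counts. The PBS libraries held 16 and 5 counts of Tnfsf8, 21 and 4 of Tnfsf11, and 18 and 2 of Tnfrsf4.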
